A study of Homo sapiens with 22 samples.

Results

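The genes described here are 10 regulators and markers of the epithelial-mesenchymal transition (EMT), the change of state in which epithelial cells give up their cell-cell junctions and take on a motile, mesenchymal form. They are the cadherins CDH1 and CDH2, the mesenchymal structural genes VIM and FN1, the transcription factors SNAI1, SNAI2, ZEB1, ZEB2 and TWIST1, and the epithelial transcription factor GRHL2. They were chosen by symbol, by a rule that uses no measured value, and all 10 were found among the 26485 gene symbols counted in each of 22 RNA-seq libraries. All carry the label MDA-MB231, a long-used human cell line from triple-negative breast cancer. One experiment compared 2 libraries of wild-type cells given DMSO (Ctrl) with 2 libraries of wild-type cells given 7.65 µM Nexturastat A, both at day 2. A second experiment, sampled at day 0, holds 3 libraries with a control hairpin (shCtrl, labelled wild type) and 3 with each of 2 hairpins labelled as HDAC6 knockdown (shHDAC6-1 and shHDAC6-2), none of which carries a treatment label. The last experiment holds 3 libraries each of wild-type cells given DMSO, HPOB or Tubastatin A, at day 2. For the Tubastatin A libraries the titles read TSA while the treatment label reads Tubastatin A, and the treatment label is used here. Nexturastat A, HPOB and Tubastatin A are inhibitors of HDAC6, a mostly cytoplasmic deacetylase. The sources used here give neither the doses of HPOB and Tubastatin A nor whether a hairpin line is a pool or 1 clone. The labels do not say that replicates came from separate cultures, so each p-value measures only the spread between these libraries, which may be technical.

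CDH1 encodes E-cadherin, which holds epithelial cells together at adherens junctions, and its loss is a classic sign of EMT. CDH2 encodes N-cadherin, which often takes its place in mesenchymal cells, while vimentin (VIM) forms the intermediate filaments of those cells and fibronectin (FN1) is a matrix protein they secrete. SNAI1, SNAI2, ZEB1 and ZEB2 are zinc-finger repressors that bind E-box sequences in epithelial promoters such as that of CDH1, TWIST1 is a basic helix-loop-helix factor that favours the mesenchymal state, and GRHL2 activates epithelial genes and stands in mutual repression with ZEB1. MDA-MB231 is widely used as a mesenchymal-like breast cancer line.

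On GRCh38, CDH1 lies on chromosome 16 at 68737292-68835537, CDH2 on chromosome 18 at 27932879-28177130, VIM and ZEB1 on chromosome 10 at 17228241-17237593 and 31318417-31529804, and FN1 and ZEB2 on chromosome 2 at 215360865-215436068 and 144384081-144520119. SNAI1 lies on chromosome 20 at 49982980-49988886 and TWIST1 on chromosome 7 at 19113047-19117636.  The 250 bases before the outermost RefSeq start (GRCh38.p14) are shown for the 2 members of chromosome 10, ZEB1 and VIM. Both were lower with Nexturastat A in the values below, VIM without a call. ZEB2, which is not shown, was also lower without a call. ZEB1 carries, in capitals, the E-box CAGGTG to which SNAI and ZEB proteins are known to bind. These 2 windows were thus picked by values and motif, and any part of the motif in the ZEB1 level was not tested. Both are on the plus strand, 5′ to 3′, at chr10:31318167-31318416 for ZEB1 and chr10:17227991-17228240 for VIM.
ZEB1: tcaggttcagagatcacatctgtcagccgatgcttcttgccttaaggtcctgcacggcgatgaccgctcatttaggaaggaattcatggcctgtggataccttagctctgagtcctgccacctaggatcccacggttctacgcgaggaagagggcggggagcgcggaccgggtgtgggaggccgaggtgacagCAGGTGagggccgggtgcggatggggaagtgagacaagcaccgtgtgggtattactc
VIM: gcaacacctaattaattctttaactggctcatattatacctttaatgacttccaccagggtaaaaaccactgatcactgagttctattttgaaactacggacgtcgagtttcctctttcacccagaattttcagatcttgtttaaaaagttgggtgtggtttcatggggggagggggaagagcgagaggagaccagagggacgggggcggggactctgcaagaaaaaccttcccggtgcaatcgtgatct
The ZEB1 window held 1 CAGGTG, which begins 57 bases before the start, and the VIM window held neither CAGGTG nor its reverse complement CACCTG. Of all 35116 windows of 250 bases in the same RefSeq table, 17.5% held CAGGTG or CACCTG. The match describes the letters and shows no binding. Windows were also at hand for CDH2, FN1 and ZEB2, whose outermost windows held no match, but not for CDH1, SNAI1, SNAI2, TWIST1 or GRHL2. Among the windows of other ZEB1 starts, which are not shown, 1 held 2 matches.

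Library totals ran from 31238740 to 85942315 counts. HDAC6, the gene targeted by the hairpins, was at 47.8 and 54.6 CPM (a gene's count per 1000000 counts of its library) in shCtrl replicates 1 and 2, and at 24.9 in replicate 3. It was at 12.6, 11.8 and 9.20 CPM in shHDAC6-1 replicates 1 to 3, and at 12.2, 13.6 and 11.6 in shHDAC6-2. All 6 hairpin libraries against HDAC6 were therefore below their control. Libraries with the same cell line label did not share one profile, however, and they are described in 4 sets: the Ctrl and Nexturastat A libraries, hairpin replicates 1 and 2, hairpin replicate 3, and the libraries of the DMSO, HPOB and Tubastatin A experiment. Hairpin replicates 1 and 2 carried CDKN2A at 140.4 to 184 CPM, a gene deleted in MDA-MB231, and CD44 and AXL, which are abundant in that line, at 21.0 to 23.3 and 17.9 to 36.4 CPM. In the Ctrl and Nexturastat A libraries CDKN2A was at 0 to 2 counts and CD44 at 318 to 371 CPM, and in the last experiment CDKN2A had no count and CD44 was at 517 to 626 CPM. The 3 genes IRS4, IGF2BP1 and LIN28B, which are known from fetal tissue or embryonic kidney lines and were chosen after their values were seen, summed to 721 to 1225 CPM in hairpin replicates 1 and 2 and to at most 0.517 CPM in the first and last experiments. Hairpin replicates 1 and 2 therefore go against their label on these markers, and replicate 3 is described apart from them. The first and last experiments also differed from each other on other markers. NKX2-1, a lung marker, was at 34.5 to 64.6 CPM in the first experiment and 0.734 to 1.52 CPM in the last. In hairpin replicate 3 it was at 27.1 to 60.3 CPM. CD74, an immune marker, was at 0.0332 to 0.259 CPM in the first experiment and 146 to 226 CPM in the last. The other immune, lung and airway markers looked at were low or varied within an experiment. PTPRC, also an immune marker, was at 0 to 0.674 CPM in the first experiment and 0.321 to 1.06 CPM in the last. For SFTPB the ranges were 0 to 1.45 and 0 to 0.128 CPM, and for MUC5AC 0.621 to 245 and 2.36 to 7.80 CPM. Which libraries match the labelled line was not tested.

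The 2 cadherins differed widely between the sets. CDH1 was at 0.166 and 0.195 CPM in Ctrl, which is 10 and 12 counts, and at 0.172 and 0.286 CPM with Nexturastat A. In the last experiment it was at 3.88 to 6.89 CPM (median 4.73, 9 libraries), and in hairpin replicates 1 and 2 at 5.48 to 7.31 CPM (median 6.05, 6 libraries). These last ranges overlapped each other and lay wholly above those of the first experiment. CDH2 was at 61.8 to 74.6 CPM in hairpin replicates 1 and 2, at 2.09 to 3.86 CPM in the last experiment (median 3.12) and at 0.282 and 0.309 CPM in Ctrl. N-cadherin transcript was thus abundant in only 1 of the sets, and no library had E-cadherin transcript above 7.31 CPM. Per kilobase of the longest transcript, the mean level of CDH2 in hairpin replicates 1 and 2 was 15.9 CPM per kb against 1.26 for CDH1, whereas in the last experiment CDH1 was the higher, at 1.02 against 0.668.

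**Figure D1:**
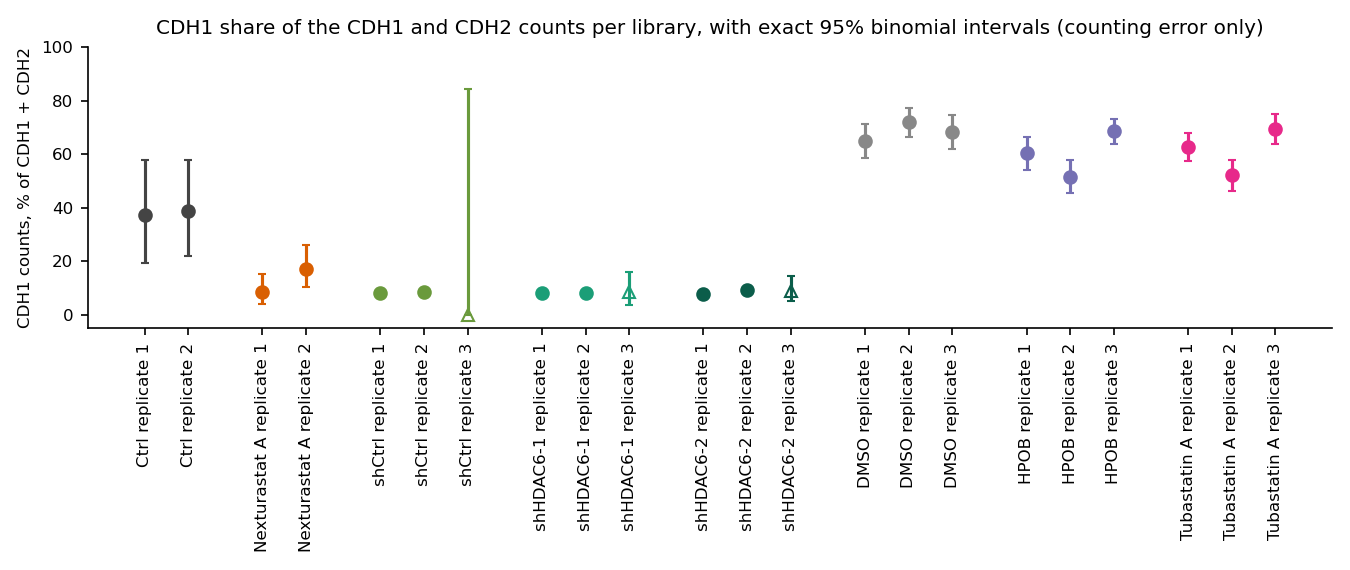
CDH1 as a percentage of the summed counts of CDH1 and CDH2 (vertical axis) in each of the 22 libraries, with exact 95% binomial intervals that cover counting error only. DMSO, HPOB and Tubastatin A libraries sit between 51.5% and 71.9%, Ctrl between 37.0% and 38.7%, and the other libraries at 17.2% or below, with 2 counts in all in shCtrl replicate 3.

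Among the mesenchymal structural genes, VIM was high in all 22 libraries. It was at 2183 and 2122 CPM in Ctrl, at 1371 to 1686 CPM in the last experiment (median 1397) and at 644 to 767 CPM in hairpin replicates 1 and 2 (median 709.6). FN1 followed the same order, with 1106 and 829 CPM in Ctrl, 231 to 455 CPM in the last experiment and 99.1 to 157 CPM in hairpin replicates 1 and 2. The ranges of Ctrl, the last experiment and hairpin replicates 1 and 2 did not overlap for either gene. In hairpin replicate 3 FN1, at 809 to 1058 CPM, overlapped the first experiment alone, and VIM, at 1426 to 1908 CPM, overlapped both the Nexturastat A libraries (1617 and 1826 CPM) and the last experiment.

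The transcription factors did not follow one order. SNAI1, the Snail repressor, was at 6.98 and 7.51 CPM in Ctrl and at only 0.640 to 2.25 CPM in the last experiment, whereas its paralog SNAI2 (Slug) was at 10.1 and 12.1 CPM in Ctrl and highest in the last experiment, at 42.1 to 54.8 CPM. ZEB1 was at 68.8 and 67.7 CPM in Ctrl, 50.5 to 69.2 CPM in the last experiment and 22.7 to 30.5 CPM in hairpin replicates 1 and 2. The levels of ZEB1 in the first and last experiments overlapped, although their CDH1 levels did not. ZEB2 was highest in hairpin replicates 1 and 2, at 33.7 to 42.4 CPM. It was at 21.9 to 29.6 CPM in the first experiment and at 13.5 to 17.2 CPM in the last, and in hairpin replicate 3 it ran from 2.89 to 35.4 CPM. TWIST1 was at 19.2 to 24.9 CPM in hairpin replicates 1 and 2 and had no count in any of the 13 libraries of the first and last experiments, which allows a level of up to 0.00531 CPM over those libraries together. The epithelial factor GRHL2 was near its detection limit throughout, at 0.230 to 0.572 CPM in hairpin replicates 1 and 2 and at 0 to 2 counts a library in the first and last experiments. Intervals and limits given on counts cover counting error only.

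**Figure D2:**
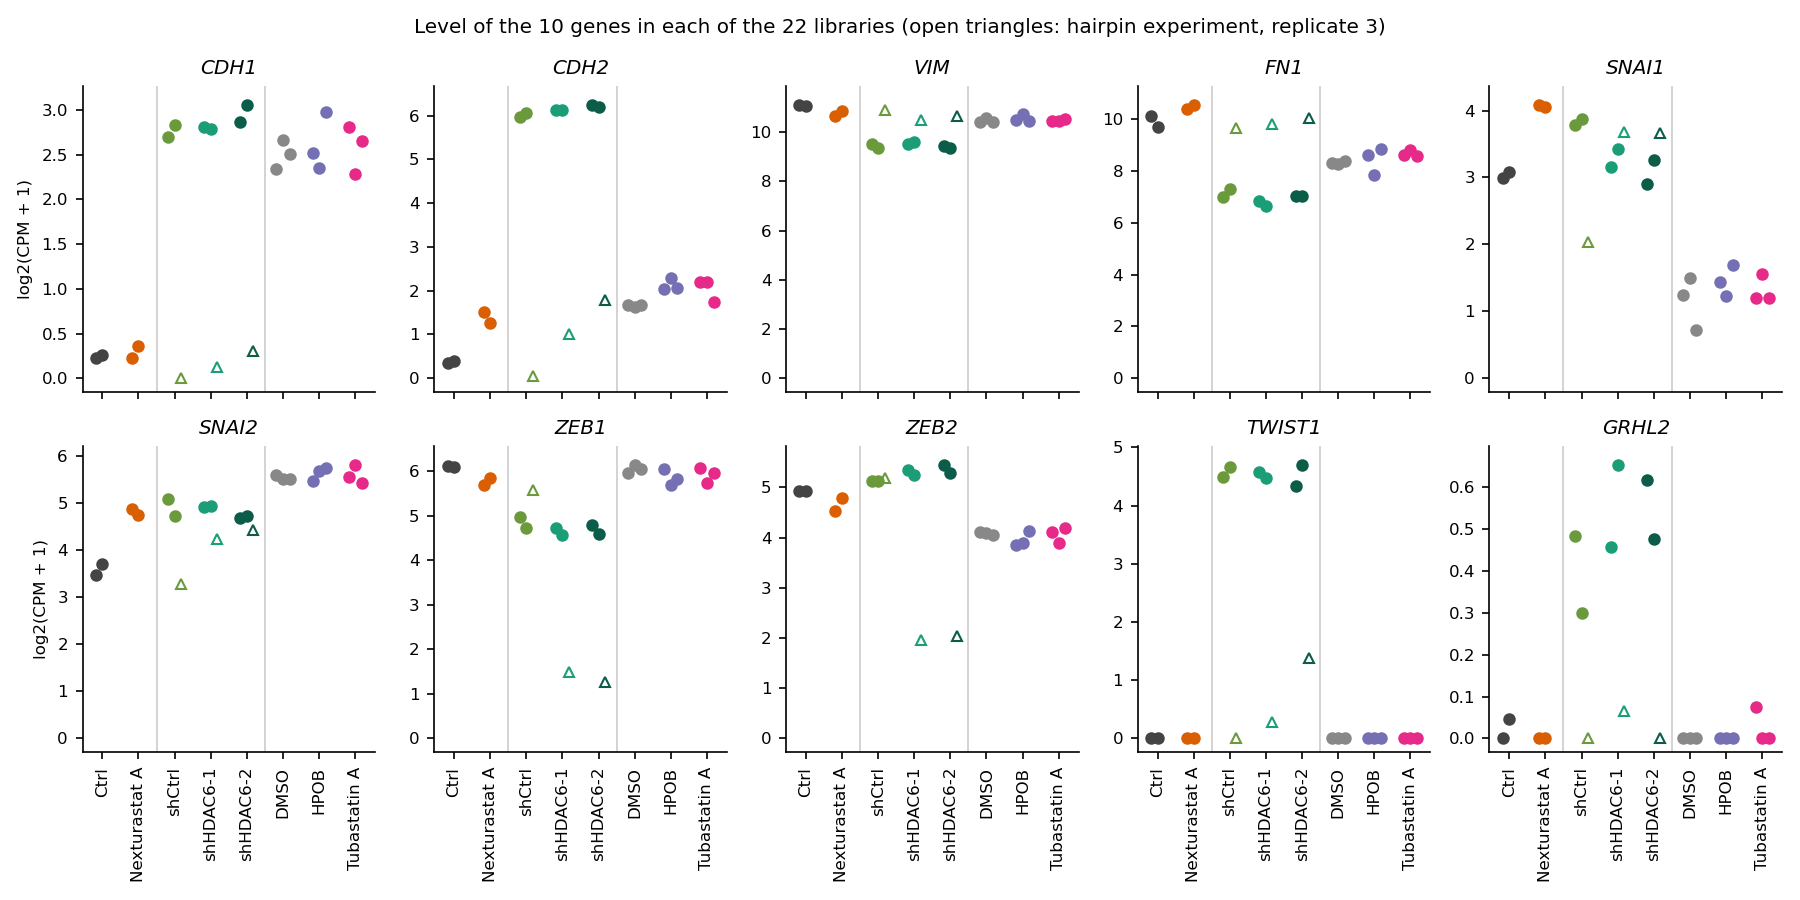
Level of each of the 10 genes, one panel per gene, as log2(CPM + 1) on the vertical axis, with 1 point per library grouped by condition along the horizontal axis and open triangles for hairpin replicate 3. TWIST1 and CDH2 stand high in hairpin replicates 1 and 2 alone, and ZEB1 and ZEB2 drop in both HDAC6 hairpin libraries of replicate 3.

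Untreated and control libraries of the 3 experiments were also set against each other in a fit over the 2 Ctrl, 2 shCtrl (replicates 1 and 2) and 3 DMSO libraries (edgeR's quasi-likelihood test, with p-values adjusted by the Benjamini-Hochberg method over all genes tested and a call at an adjusted p under 0.05). Experiment, library preparation and cell stock cannot be told apart in these contrasts. Between DMSO and Ctrl, 62.9% of all 17976 genes tested were called (30.6% higher in DMSO and 32.3% lower), and 7 of 9 members tested: CDH1, CDH2 and SNAI2 were higher in DMSO, and VIM, FN1, SNAI1 and ZEB2 lower. CDH1 was 26.1-fold higher by counts (95% interval 17.0 to 42.0), with a log2 fold change of 4.67 ± 0.32 (SE). SNAI1 and SNAI2 moved in opposite directions, with log2 fold changes of -2.49 ± 0.25 and 2.03 ± 0.13. For ZEB1 the log2 fold change was -0.07 (95% interval -0.26 to 0.12).

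Between shCtrl replicates 1 and 2 and Ctrl, 76.5% of genes were called (41.5% higher in shCtrl and 34.9% lower), and 9 of the 10 members, 6 higher and 3 lower. CDH2 was 216-fold higher in shCtrl by counts (156 to 308), CDH1 32.2-fold higher (21.1 to 51.7) and TWIST1 at least 935-fold higher, taken against 3 counts over the Ctrl group. VIM, FN1 and ZEB1 were lower, with log2 fold changes of -1.81, -2.94 and -1.46, and ZEB2 was the member not called, at 0.02. The calls of SNAI1 (0.70, higher in shCtrl) and GRHL2 (higher) were each lost without 1 of 2 single libraries, Ctrl replicate 1 or shCtrl replicate 2 for SNAI1 and Ctrl replicate 1 or shCtrl replicate 1 for GRHL2, and DESeq2 did not call GRHL2. Against DMSO of the last experiment, 77.2% of genes were called (42.5% higher in shCtrl and 34.7% lower) and 9 of 10 members, 5 higher and 4 lower, and here CDH1 was the exception, with a log2 fold change of 0.14 (95% interval -0.31 to 0.59). In that contrast CDH2 was 29.6-fold higher in shCtrl by counts and SNAI1 10.1-fold higher. The members' shares stand beside a background in which most genes were called, so these counts do not set the members apart.

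An average of log2(CPM + 1) was taken over CDH1 and GRHL2 as an epithelial side and over the other 8 genes as a mesenchymal side, as a description with no test. The mesenchymal side minus the epithelial side was 4.75 ± 0.04 (SD, n = 2) in Ctrl, 4.16 ± 0.01 (n = 2) in shCtrl replicates 1 and 2 and 3.40 ± 0.08 (n = 3) in DMSO. By this difference the Ctrl libraries stood furthest toward the mesenchymal end among the controls of 2 or more libraries, and the DMSO libraries nearest to the epithelial end. In Ctrl the epithelial side rests on 10 and 12 counts of CDH1 and 0 and 2 counts of GRHL2. A separate list of 33 mesenchymal genes did not give this order. Its mean log2(CPM + 1) was 4.09 to 4.21 in Ctrl and 4.33 to 4.39 in DMSO. In shCtrl replicates 1 and 2 it was 4.13 to 4.14. For 30 epithelial adhesion and polarity genes the means were 3.78 to 3.82 in Ctrl, 4.09 to 4.11 in DMSO and 3.70 to 3.79 in shCtrl. The 2 sides did not trade off, since shCtrl replicates 1 and 2 were highest on both, at 5.73 on the mesenchymal side and 1.58 on the epithelial side, against 4.88 and 0.13 in Ctrl and 4.66 and 1.25 in DMSO. Within the hairpin libraries of replicates 1 and 2 the difference was 3.96 ± 0.07 (SD, n = 2) for shHDAC6-1 and 3.87 ± 0.01 for shHDAC6-2. In the first experiment it was 5.09 ± 0.02 (SD, n = 2) with Nexturastat A, and in the last it was 3.44 ± 0.08 (n = 3) with HPOB and 3.45 ± 0.18 with Tubastatin A. In hairpin replicate 3 the single values were 4.59 in shCtrl, 4.02 in shHDAC6-1 and 4.25 in shHDAC6-2. Nexturastat A libraries thus lay beyond Ctrl toward the mesenchymal end, those of both HDAC6 hairpins lay below the shCtrl libraries of the same replicates, and HPOB and Tubastatin A lay within 0.05 of DMSO. In the first experiment CDH1 and GRHL2 had few counts, so the epithelial side had little room to fall. The 30 epithelial adhesion and polarity genes averaged 4.15 to 4.20 with Nexturastat A, above Ctrl. The mesenchymal list was above Ctrl too, at 4.45 to 4.58. The hairpin values do not rest on the same members throughout. SNAI1 was lower than in shCtrl in replicates 1 and 2 and higher in replicate 3, where ZEB1 and ZEB2 were low.

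**Figure D3:**
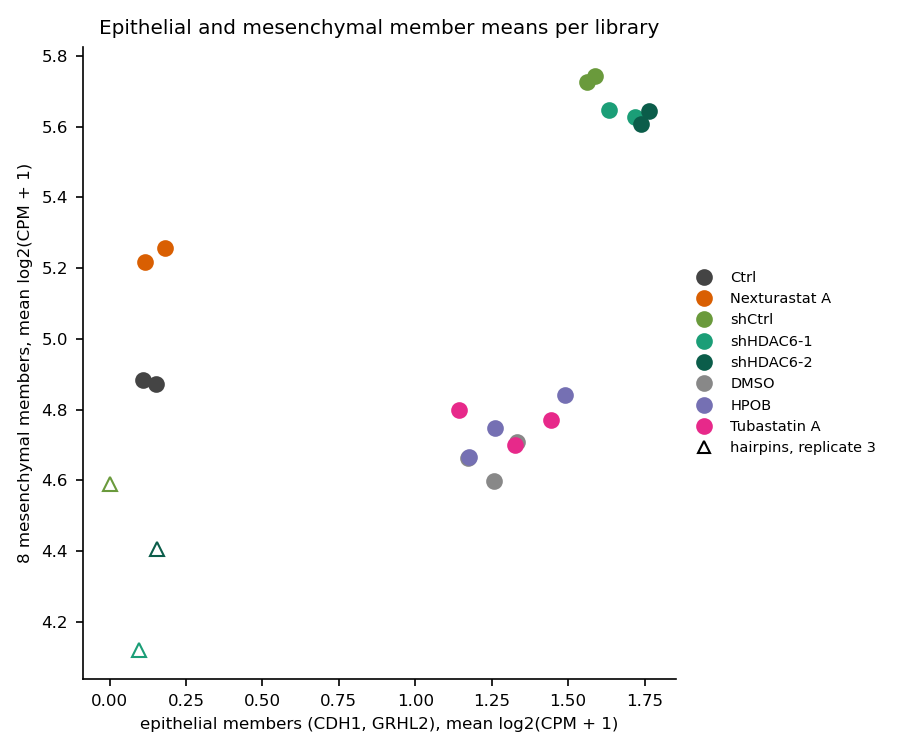
Mean log2(CPM + 1) of CDH1 and GRHL2 (horizontal axis, epithelial side) against that of the 8 mesenchymal members (vertical axis), with 1 point per library. Hairpin replicates 1 and 2 are at the upper right, high on both axes, and the last experiment stands apart from the other sets. The first experiment and hairpin replicate 3 overlap on the epithelial axis, and replicate 3 lies lower on the mesenchymal axis.

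Nexturastat A raised CDH2, SNAI1 and SNAI2 and lowered ZEB1, while CDH1 gave no call. These are 4 of the 8 members with enough counts to test, beside 36.6% of all 16678 genes tested (21.1% higher and 15.5% lower). CDH2 was at 1.86 and 1.38 CPM with Nexturastat A and at 0.282 and 0.309 CPM in Ctrl, from 108 and 82 counts against 17 and 19. Both treated libraries were above both controls, with a log2 fold change of 2.36 ± 0.42 (SE; adjusted p = 0.00685, edgeR), and yet the raised level was below the lowest of the DMSO libraries in the last experiment. SNAI1 was at 15.9 and 15.6 CPM against 6.98 and 7.51, with a log2 fold change of 1.03 ± 0.18 (adjusted p = 0.00628). SNAI2 was at 28.3 and 25.7 CPM against 10.1 and 12.1, with a log2 fold change of 1.19 ± 0.18 (adjusted p = 0.00390). For both Snail-family repressors the treated and control libraries were well apart. ZEB1 was at 51.0 and 56.8 CPM against 68.8 and 67.7, and its log2 fold change of -0.43 ± 0.13 (adjusted p = 0.0371) was the smallest of the 4.

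The other members gave no call with Nexturastat A. VIM was at 1617 and 1826 CPM against 2183 and 2122, a log2 fold change of -0.41 (95% interval -0.76 to -0.07, adjusted p = 0.0644). FN1 was at 1348 and 1483 CPM against 1106 and 829, a log2 fold change of 0.46 (0.05 to 0.87, adjusted p = 0.0767). The 2 structural markers of the mesenchymal state thus had values in opposite directions, and neither was called. ZEB2 was at 21.9 and 26.7 CPM against 29.4 and 29.6, a log2 fold change of -0.37. CDH1 remained at trace level, with 10 and 17 counts against 10 and 12, and the interval of its log2 fold change reached from -1.18 to 1.69. TWIST1 had no count, and GRHL2 had none with Nexturastat A and 2 in Ctrl. With 2 libraries a group these calls are thin: without Ctrl replicate 1 all 4 kept their direction, at adjusted p = 0.0561 for CDH2, 0.0941 for SNAI1, 0.0571 for SNAI2 and 0.251 for ZEB1, and without Ctrl replicate 2 SNAI1 (0.0722) and ZEB1 (0.241) were lost. With trends in GC content and transcript length removed, ZEB1 lost its call (adjusted p = 0.109), while VIM (log2 fold change -0.55, 0.0185) and FN1 (0.57, 0.0262) gained one.

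The pathway lists were read beside all genes tested, of which 21.1% rose and 15.5% fell with Nexturastat A. Of the mesenchymal list, 29 of 33 genes were tested, 13 rose and 6 fell, with a median log2 fold change of 0.44 beside 0.03 over all genes tested. The fibrillar collagens COL3A1 (3.66), COL5A2 (1.84) and COL1A1 (1.84) had the largest rises there, while CDH11, a mesenchymal cadherin (-1.41), MSN, which links membrane to actin (-1.36), and FBN1 (-0.89) fell. Of the epithelial transcription factors, 13 of 16 were tested, 7 rose and 1 fell (median 0.51). GRHL1 (1.34) and GRHL3 (0.97), paralogs of GRHL2, were among those that rose, and ELF3 (-1.44) was the one that fell. Only 10 of those 16 factors and 22 of the 33 mesenchymal genes reached 1 CPM in each Ctrl library. Both medians therefore include genes below 1 CPM in Ctrl. Epithelial adhesion and polarity genes were mixed, with 11 of 28 tested higher, led by MAL2 (2.80) and the tight-junction genes CGN (2.70) and TJP3 (2.62), and 3 lower, MARVELD2 (-1.91), PKP3 (-1.80) and SPINT2 (-0.78).

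Among other transcription factors of EMT, 6 of 13 tested rose and 4 fell with Nexturastat A (median 0.47). The ID genes, whose products hold back basic helix-loop-helix factors, rose together (ID2 2.29, ID1 1.53 and ID3 1.46), and the mesenchymal factor PRRX1 fell (-2.28). In the list of other classical cadherins and catenins 7 of 12 tested rose and 2 fell (median 1.93), the 2 being the catenins CTNND1 (-0.98) and CTNNA1 (-0.41), which anchor cadherins to the cell interior. Only 6 of the 18 genes on that list reached 1 CPM in each Ctrl library, and 8 to 10 with Nexturastat A. The median therefore includes genes below 1 CPM in Ctrl, as does that of the other EMT factors, of which 10 of 16 reached 1 CPM there. Of 20 genes of TGF-beta signalling, a main inducer of EMT, 6 rose and 3 fell (median 0.04, beside 0.03 over all genes), led by INHBA (2.21) and BAMBI (1.51) upward and LTBP1 (-1.18) downward. Of 12 corepressors and enzymes that SNAI and ZEB proteins recruit, none rose and 5 fell (median -0.32), among them SUZ12 (-0.83), EHMT2 (-0.80) and HDAC1 (-0.49). None of the loci of miR-200 and miR-205, which target ZEB1 and ZEB2, had enough counts to test.

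**Figure D4:**
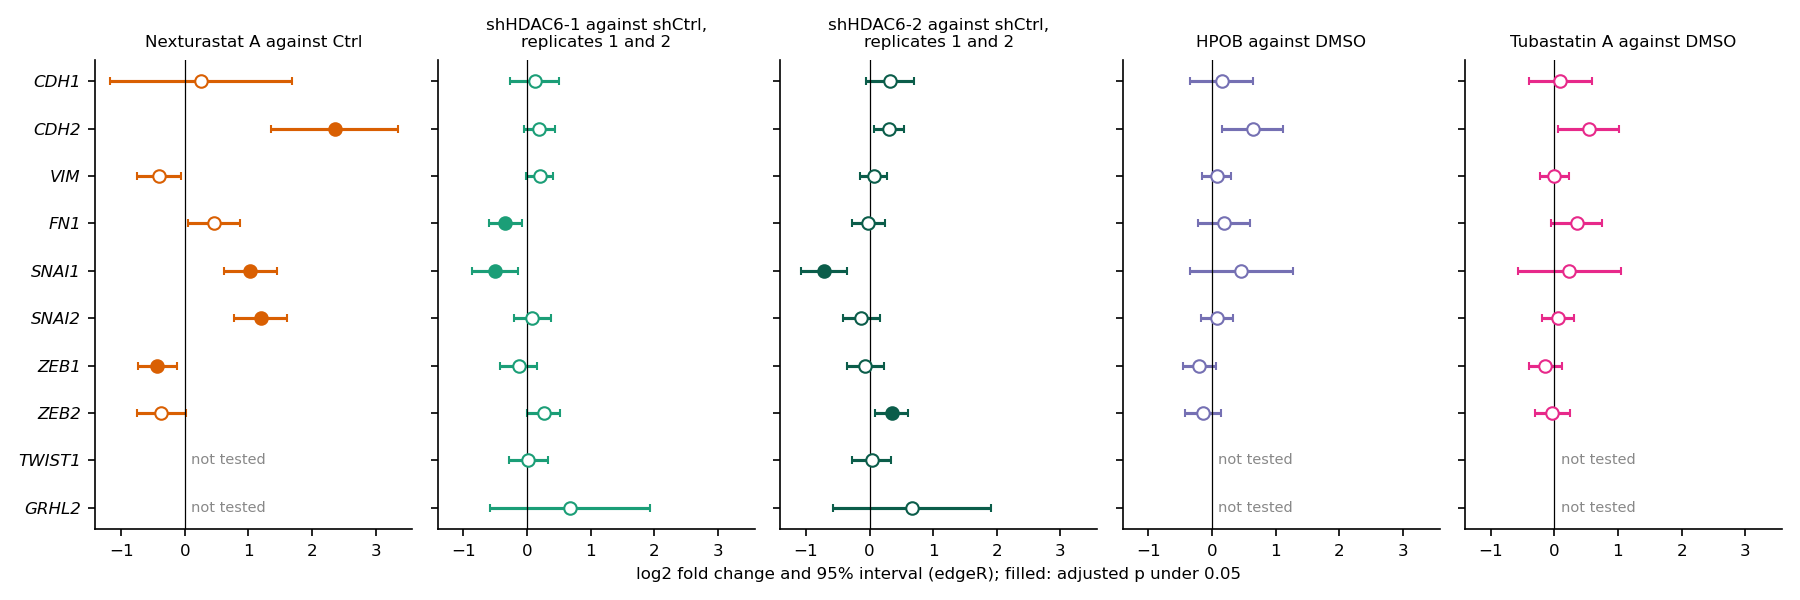
Log2 fold change of each member (horizontal axis) with its 95% interval in the 5 comparisons of a treatment or hairpin with its own control, hairpins in replicates 1 and 2. Filled points were called at an adjusted p under 0.05; the calls are CDH2, SNAI1, SNAI2 and ZEB1 with Nexturastat A, FN1 and SNAI1 with shHDAC6-1, and SNAI1 and ZEB2 with shHDAC6-2.

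With the hairpins, in replicates 1 and 2, SNAI1 fell with either of them, FN1 fell with shHDAC6-1 and ZEB2 rose with shHDAC6-2. Against shCtrl, 2 of 10 members were called with shHDAC6-1, both lower, beside 30.5% of 17702 genes tested, and 2 of 10 with shHDAC6-2, 1 higher and 1 lower, beside 27.6%. Both hairpins were compared with the same 2 shCtrl libraries, so their values are not independent. SNAI1 was at 12.8 and 13.7 CPM in shCtrl, 7.89 and 9.79 CPM in shHDAC6-1 and 6.47 and 8.57 CPM in shHDAC6-2. All 4 knockdown libraries were below both controls, with log2 fold changes of -0.51 ± 0.18 (SE; adjusted p = 0.0317, edgeR) and -0.72 ± 0.18 (adjusted p = 0.00348). FN1 was at 125 and 157 CPM in shCtrl and at 112 and 99.1 CPM in shHDAC6-1, a log2 fold change of -0.34 ± 0.13 (adjusted p = 0.0434). In shHDAC6-2 it was at 130.2 and 131 CPM, between the controls, with a log2 fold change of -0.02. ZEB2 was at 33.7 CPM in both shCtrl libraries and at 42.4 and 37.8 CPM in shHDAC6-2, a log2 fold change of 0.35 ± 0.13 (adjusted p = 0.0440). In shHDAC6-1 it was at 39.5 and 37.0 CPM, a log2 fold change of 0.26 that was not called (adjusted p = 0.125).

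Among the members without a call, CDH2 came nearest. It was at 61.8 and 65.5 CPM in shCtrl, 68.9 and 68.8 CPM in shHDAC6-1 and 74.6 and 72.5 CPM in shHDAC6-2, and its log2 fold change in shHDAC6-2 was 0.30 (95% interval 0.06 to 0.54, adjusted p = 0.0539; DESeq2 called it, adjusted p = 0.0280). CDH1 was at 5.48 and 6.10 CPM in shCtrl, 6.01 and 5.90 CPM in shHDAC6-1 and 6.26 and 7.31 CPM in shHDAC6-2. Neither cadherin gave way to the other, since CDH1 made up 7.75% to 9.16% of the summed cadherin counts in all 6 libraries. For VIM, SNAI2, ZEB1 and TWIST1 the log2 fold changes lay between -0.13 and 0.20 with either hairpin, and GRHL2, at 0.230 to 0.572 CPM, was too low for a narrow interval (-0.58 to 1.93 with shHDAC6-1). Set against each other, the hairpins gave no call in any member, nor in any of the 17702 genes (0.0%) by edgeR, and DESeq2 called no member either. Without adjustment, 1107 genes had a p under 0.05, among them 1 member, FN1 (log2 fold change 0.33).

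Single libraries decided several of these calls. Without shCtrl replicate 2 both calls of shHDAC6-1 were lost (adjusted p = 0.467 for FN1 and 0.102 for SNAI1), and likewise without shHDAC6-1 replicate 1 (0.0953 and 0.312). Without shHDAC6-1 replicate 2 FN1 was lost (0.360), and ZEB2 in shHDAC6-2 was lost without any 1 of 5 of the 6 libraries, at adjusted p = 0.0825 to 0.296. Genes of low GC content had a median log2 fold change of 0.21 (the lowest of 5 equal groups) and those of high GC content -0.32 (the highest group) with shHDAC6-1. With such trends removed, SNAI1 in shHDAC6-1 was lost (0.0865), ZEB2 in shHDAC6-2 was lost (0.210), CDH2 in shHDAC6-2 was called (0.19, adjusted p = 0.0289), and ZEB1 was called lower with both hairpins (log2 fold change -0.36, adjusted p = 0.00138, and -0.25, 0.0220).

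The pathway lists were read beside all genes tested, of which 15.3% rose and 15.2% fell with shHDAC6-1, and 14.4% and 13.2% with shHDAC6-2. Of 20 TGF-beta signalling genes tested, 9 rose and none fell with shHDAC6-1 (median log2 fold change 0.32, beside -0.02 over all genes), and 11 rose and none fell with shHDAC6-2 (0.35, beside 0.00). TGFBR2, a receptor of TGF-beta, led with 1.67 and 1.72, or 33.3 CPM in shHDAC6-1 against 11.1 in shCtrl. Of 32 mesenchymal genes tested, 3 rose and 12 fell with either hairpin (medians -0.38 and -0.32). The fibrillar collagens COL1A1 (0.48 and 0.71) and COL5A2 (0.51 and 0.64) were among those that rose, and CTGF (-0.90 and -1.03) was among those that fell with both. Of 16 other EMT factors, 6 rose and 1 fell with shHDAC6-1 and 5 rose and 1 fell with shHDAC6-2, with ID2 (1.27 and 1.02) and HMGA2 (0.98 and 0.85) rising and TCF4 (-0.65 and -0.76) falling.

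Epithelial genes had calls in both directions. In the adhesion and polarity list 1 of 30 rose and 5 fell with shHDAC6-1, and 5 rose and 5 fell with shHDAC6-2. OCLN (0.51 and 0.68), a tight-junction protein, rose and CLDN7 (-1.22 and -0.86) and SPINT2 (-0.84 and -0.89) fell with both. FOXA2 (-1.67 and -1.76) was the 1 call among 14 epithelial transcription factors. In the list of other cadherins and catenins 2 of 15 rose with each hairpin, CTNNA1 (0.63 and 0.67) and CDH7 (0.53 and 0.77), and 3 and 1 fell, CDH24 with both (-0.43 and -0.38). Of 12 corepressors, EHMT2 (-0.35) and SIN3A (-0.33) fell with shHDAC6-1 and none was called with shHDAC6-2.

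In hairpin replicate 3, ZEB1 and ZEB2 were at a small part of the control level with both HDAC6 hairpins. There is 1 library per group, so these are values with no test. ZEB1 was at 47.2 CPM in shCtrl and at 1.82 and 1.39 CPM in shHDAC6-1 and shHDAC6-2, which is 3.85% (95% interval from counts 3.26 to 4.52) and 2.95% (2.34 to 3.68) of the control. ZEB2 was at 35.4 CPM in shCtrl and at 2.89 and 3.09 CPM with the hairpins, or 8.16% (7.13 to 9.30) and 8.73% (7.47 to 10.2). In replicates 1 and 2 the same genes kept to 22.7 to 26.7 CPM (ZEB1) and 37.0 to 42.4 CPM (ZEB2) with these hairpins, so a drop of this size was seen in replicate 3 alone. SNAI1 was at 3.12 CPM in shCtrl and 11.9 and 11.7 CPM with the hairpins, 3.81-fold (3.27 to 4.45) and 3.75-fold (3.20 to 4.41) higher, the opposite direction to replicates 1 and 2. SNAI2 was at 8.78 CPM in shCtrl and 18.0 and 20.5 CPM with the hairpins, 2.05-fold and 2.33-fold higher. VIM was at 1908 CPM in shCtrl and 1426 and 1624 CPM with the hairpins, or 74.7% and 85.1% of control, and FN1 at 809 CPM and at 893 and 1058 CPM.

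Both cadherins and TWIST1 were nearly absent from shCtrl replicate 3 and present with the hairpins. CDH2 had 2 counts in shCtrl (0.0308 CPM) and 87 and 145 counts with the hairpins (1.01 and 2.46 CPM), which is 32.8-fold (8.82 to 275) and 79.8-fold (21.7 to 665) higher. CDH1 had no count in shCtrl and 8 and 14 with the hairpins, at least 2.01-fold and 5.14-fold higher when taken against 3 counts. TWIST1 had no count in shCtrl and 19 and 94 with the hairpins, at least 4.78-fold and 34.5-fold higher. In the same 2 libraries the genes that mark hairpin replicates 1 and 2 were also present: IRS4, IGF2BP1 and LIN28B summed to 17.8 and 54.5 CPM and CDKN2A was at 7.11 and 24.1 CPM, and all 4 had no count in shCtrl replicate 3. As a share of the same hairpin's level in replicates 1 and 2, CDH1 was at 1.56% and 3.50%, CDH2 at 1.47% and 3.35% and TWIST1 at 1.00% and 7.25%, beside 1.29% and 3.38% for IRS4 and 4.13% and 15.7% for CDKN2A. The part of those marker genes' source in the cadherin and TWIST1 values was not tested. ZEB1 and ZEB2, at 5.58% to 7.71% of replicates 1 and 2, went down and not up against their own control.

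The libraries of replicate 3 also differed by base composition. Among the 13031 genes with a mean of at least 1 CPM in these 3 libraries, 27.1% were over 2-fold higher and 33.8% over 2-fold lower in shHDAC6-1 than in shCtrl, and 25.8% and 32.6% in shHDAC6-2. The median log2 ratio ran from -2.49 and -2.51 for the genes lowest in GC content (the lowest of 5 equal groups) to 1.45 and 1.32 for the genes highest in it. ZEB1 and ZEB2, whose longest transcripts are 38.5% and 39.1% GC, fall in the lowest of these groups. Within it, 7.69% and 4.53% of genes lay below ZEB1, and 24.8% and 28.3% below ZEB2. With trends in GC content and length removed, a step added after the data were seen, the log2 ratio of ZEB1 went from -4.48 to -1.98 (shHDAC6-1) and from -4.86 to -2.37 (shHDAC6-2), and that of ZEB2 from -3.40 to -0.81 and from -3.30 to -0.77. SNAI1 went from 2.14 to 0.51 and from 2.12 to 0.52, SNAI2 from 1.24 to 2.77 and from 1.44 to 2.94, and FN1 from 0.35 to 2.23 and from 0.60 to 2.39. The low ZEB and high Snail-family values kept their direction, and their size depended on this step. In the mesenchymal list 16 of 26 genes were over 2-fold higher and none over 2-fold lower with shHDAC6-1, and 15 and 2 with shHDAC6-2. Epithelial adhesion and polarity genes were also more often over 2-fold higher than lower, 13 against 7 of 25 with shHDAC6-1 and 11 against 6 with shHDAC6-2.

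**Figure D5:**
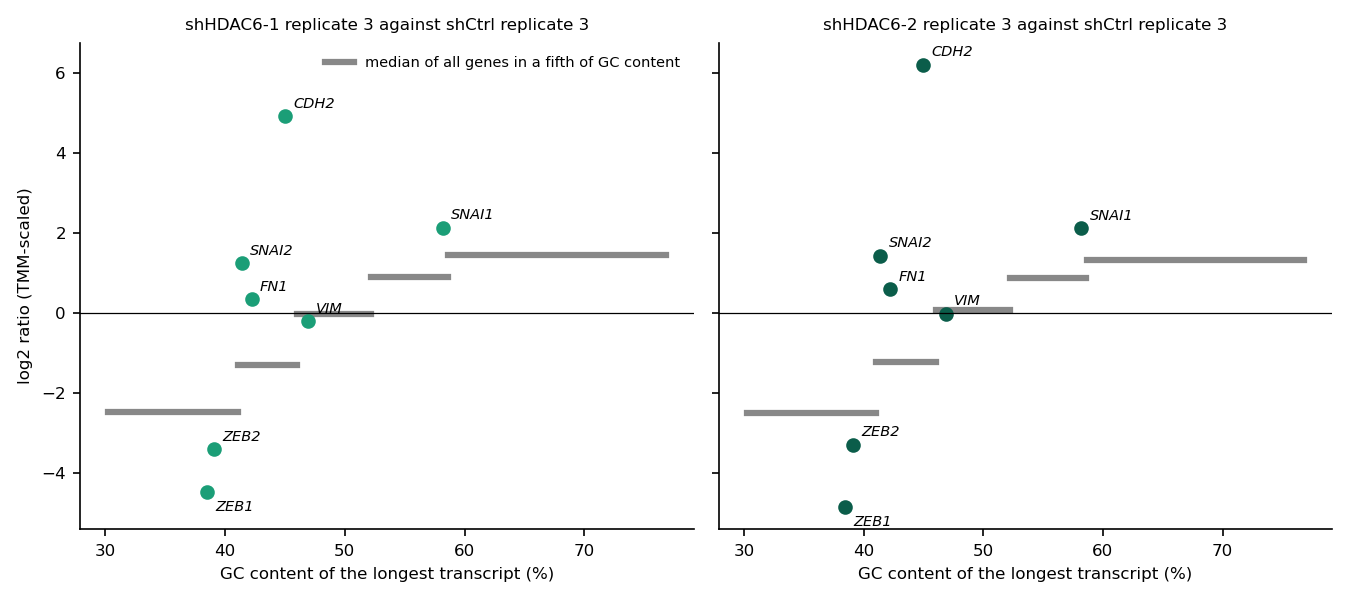
Log2 ratio to shCtrl replicate 3 (vertical axis, TMM-scaled counts) of the 7 members with a count in that control in shHDAC6-1 and shHDAC6-2 replicate 3 against the GC content of their longest transcript (horizontal axis, percent), with the median of all genes in each of 5 equal groups by GC content in grey. The grey medians climb from -2.49 and -2.51 to 1.45 and 1.32; ZEB1 and ZEB2 lie below the medians of their group, and CDH2, SNAI2 and FN1 above theirs.

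HPOB and Tubastatin A gave no call in any member. By edgeR, 0.0261% of 15338 genes tested were called with HPOB (4 genes) and 0.0% with Tubastatin A, and 1588 and 757 genes had an unadjusted p under 0.05. CDH2 was the 1 member with an unadjusted p under 0.05 in each of these comparisons, and DESeq2 called no member. It was at 2.20, 2.09 and 2.18 CPM in DMSO, 3.12, 3.86 and 3.15 CPM with HPOB and 3.58, 3.56 and 2.32 CPM with Tubastatin A. All 6 treated libraries were above all 3 controls, but how many of all genes separated in this way was not counted. The log2 fold changes of CDH2 were 0.64 (95% interval 0.16 to 1.12, adjusted p = 0.418, edgeR) and 0.54 (0.07 to 1.02, adjusted p = 0.857). CDH1 was at 4.07, 5.35 and 4.71 CPM in DMSO and spread over that range and beyond it with both compounds, with log2 fold changes of 0.15 (-0.34 to 0.65) and 0.10.

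FN1 was at 312, 304 and 328 CPM in DMSO, 395, 231 and 455 CPM with HPOB and 386, 442 and 381 CPM with Tubastatin A. The Tubastatin A libraries did not overlap DMSO, a separation likewise not counted over all genes, and the HPOB libraries lay on both sides of DMSO. The log2 fold change with Tubastatin A was 0.35 (-0.05 to 0.76, adjusted p = 0.857, edgeR). SNAI1 was at 0.640 to 1.82 CPM in DMSO, 1.35 to 2.25 with HPOB and 1.30 to 1.94 with Tubastatin A, and these ranges overlapped. SNAI2 had log2 fold changes of 0.09 (-0.16 to 0.34) and 0.05, ZEB1 of -0.20 (-0.46 to 0.06) and -0.14, ZEB2 of -0.14 and -0.03, and VIM of 0.08 and -0.00. No count of TWIST1 was found in the 9 libraries, and GRHL2 had 2 counts in 1 of them. Set against each other, the 2 compounds gave no call in any gene by edgeR (0.0%; 481 genes and no member at an unadjusted p under 0.05) and none in a member by DESeq2, with a log2 difference of -0.10 (-0.56 to 0.37) for CDH2 and 0.16 (-0.24 to 0.56) for FN1, Tubastatin A minus HPOB. HPOB replicate 3 and Tubastatin A replicate 2 stood apart from the other 7 libraries, with AXL at 834 and 682 CPM against 1377 to 1621 CPM, and without both of them no member was called either. No gene of any of the pathway lists was called with HPOB or Tubastatin A, and the list medians lay between -0.16 and 0.27.

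On the log2 scale, the response of CDH2 and SNAI2 to Nexturastat A was larger than to the other compounds. This came from a test of the difference itself, fitted over the 13 libraries of both experiments. For CDH2 it is a ratio taken from a lower control. Its means were 0.296 CPM in Ctrl and 1.62 CPM with Nexturastat A, against 2.15 in DMSO, 3.37 with HPOB and 3.15 with Tubastatin A. The effect of Nexturastat A minus that of HPOB was called for 17.5% of 17083 genes (9.81% higher and 7.69% lower) and for 2 members, CDH2 at 1.76 ± 0.42 (SE, log2; adjusted p = 0.00984, edgeR) and SNAI2 at 1.15 ± 0.19 (adjusted p = 0.000875). The effect of Nexturastat A minus that of Tubastatin A was called for 19.1% of genes (10.6% higher and 8.46% lower) and for the same 2 members, CDH2 at 1.87 ± 0.42 (adjusted p = 0.00662) and SNAI2 at 1.20 ± 0.19 (adjusted p = 0.000568). For SNAI1 the differences of 0.62 and 0.86 were not called (adjusted p = 0.369 and 0.193). Compound, dose, experiment and cell stock all differ between the 2 sides of these tests and cannot be told apart, and the 2 tests share the Nexturastat A and Ctrl libraries. Without Ctrl replicate 1 the difference to HPOB was not called for CDH2 (adjusted p = 0.0553).

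Across the 22 libraries, the genes whose log2(CPM + 1) was most like that of a member were listed as a description, by Pearson's r among 14394 genes with a mean of at least 1 CPM. The points fall into the 4 sets of libraries and share their depth and preparation. Nearest to CDH1 were TENM3 (0.985), AFF3 (0.981), PLCB4 (0.980), PNPLA3 (0.980) and AMPH (0.977). Nearest to VIM were LINC01116 (0.982), EMP1 (0.980), GPAT3 (0.979), DUSP4 (0.977) and NPAS2 (0.977). Nearest to ZEB1 were ANKRD12 (0.993), KIAA1033 (0.992), HIF1A (0.992), ANKRD26 (0.991) and PCYOX1 (0.991). None of the 15 was on the mesenchymal or epithelial lists.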

How the data were processed

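Each library has 1 deposited table of raw read counts by gene symbol. Per the submitters' processing notes, the authors used Trim Galore 0.6.7, STAR 2.7.9a, featureCounts 2.0.3 and DESeq2 1.30.1 with GRCh38; the sources used here give neither annotation nor strand, so antisense reads cannot be told apart.

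Levels are CPM, by library total (31238740 to 85942315 counts). Fold changes come from edgeR 4.0.16 (R 4.3.3): TMM scaling, filterByExpr with a minimum count of 10 and total of 15, robust quasi-likelihood fits, Benjamini-Hochberg adjustment over all genes tested. Their 95% intervals cover 1 gene at a time. Each experiment was fitted alone, hairpin replicate 3 apart, stocks over the 7 control libraries, and differences of effects over 13 libraries. GC content and length are of the longest GENCODE 29 transcript, matched for 24646 symbols. Intervals on count ratios are exact binomial ones. Alternatives were DESeq2 1.42.0, its size factors, other filters, leaving out libraries, a replicate block, and GC and length trends removed. The fits were also run on simulated counts with known changes and the same spread for all genes. Those counts held no GC trend and no outlying library, so they do not check the calls against either. All 10 members are named; of other lists, up to 3 called genes per direction, of which 1 is not reported here. Members and lists were chosen with earlier results of these data known.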

Additional observations from a re-analysis of the deposited data

Results flagged for a closer look

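The effects of the compounds on 2 members differed between experiments when the difference itself was tested. On the log2 scale, CDH2 responded more to Nexturastat A than to HPOB, by 1.76, and more than to Tubastatin A, by 1.87. Its control means were far apart, at 0.296 CPM in Ctrl and 2.15 CPM in DMSO. SNAI2 likewise differed by 1.15 from the response to HPOB and by 1.20 from that to Tubastatin A. CDH2 was higher in 2 of 2 Nexturastat A libraries than in both controls, and in all 6 HPOB and Tubastatin A libraries than in all 3 DMSO libraries. SNAI2 was higher than its controls in 2 of 2 Nexturastat A libraries and overlapped DMSO with both other compounds. How many of all genes separated in these ways was not counted. Experiment, dose and cell stock cannot be told apart from compound here.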

How the results depend on the processing

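Of 1538 values of single members under the alternatives, 1482 kept their direction and their side of the threshold, 32 lost a call, 20 gained one and 4 reversed; the 1482 include 69 whose sign differed but which were called in neither fit. The 4 reversals arose when replicate 3 joined the hairpin fit of all 9 libraries: FN1 0.25 and SNAI1 0.21 with shHDAC6-1, SNAI1 0.0539 and ZEB2 -0.31 with shHDAC6-2 (log2). No gene was called in that fit, and 0 members with either hairpin. In replicate 3, VIM turned from -0.21 to 0.12 and from -0.02 to 0.25 with GC and length trends removed. Members called with Nexturastat A numbered 4, 2 at a mean CPM of at least 5 (CDH2 then not tested) and 0 to 6 when 1 library was left out. With shHDAC6-1 they numbered 2, and 0 to 2 when 1 was left out. With shHDAC6-2 they numbered 2, 1 with no filter, 1 at a mean CPM of at least 5, 1 from the 2 groups alone and 1 to 2 when 1 was left out. The differences from HPOB and Tubastatin A numbered 2 each, 1 each at a mean CPM of at least 5, and 1 to 3 and 2 when 1 library was left out. Apart from these results and settings, the cause of the changes was not tested.

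The main fits did not pair libraries by replicate number. Residuals of same-numbered libraries correlated at 0.105 (Nexturastat A), -0.0465 to 0.161 (hairpins) and -0.155 to 0.198 (last experiment). With 2 libraries a group, differently numbered libraries give the same value with the opposite sign. These correlations therefore cannot show that pairing was absent. With the replicate block, members called stayed at 4 with Nexturastat A and 2 with shHDAC6-1, and were 3 with shHDAC6-2 (CDH2 added, adjusted p = 0.0261 by edgeR). With the block and GC and length trends removed they were 5, 2 and 4.

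The mesenchymal minus epithelial difference depends on the pseudocount: at 0.1 it was 6.68 in Ctrl, 5.07 in shCtrl replicates 1 and 2 and 4.60 in DMSO, and without VIM 3.86, 3.63 and 2.57, in the same order. Depth limits CDH1 in the first experiment and GRHL2 everywhere.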
